A study of Homo sapiens with 7 samples.

Results

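Changes between 12 h and 24 h of ERK5 inhibition were examined by comparing H1 cells after 24 h of XMD892 with the same line after 12 h. Members were all genes whose normalised read count averaged at least 10 over the 12 h library and both 24 h libraries, which gave 16234 of the 19775 genes listed. Just inside that limit lay NARF-IT1, with a mean of 10.001 over the 3 libraries, and just outside it ZNF559-ZNF177, with a mean of 9.997.

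H1 is an established human embryonic stem cell line, here with a wild-type genotype and kept in E8, a defined medium that contains insulin, transferrin, FGF2 and TGFβ. XMD892 is a small-molecule kinase inhibitor used against ERK5, and it was given at 1 µM in E8. The groups were XMD892 for 12 h (1 library), for 24 h (2 libraries) and for 48 h (2 libraries), and E8 without the compound, harvested at 48 h (2 libraries). All groups therefore share the line, the genotype and the medium, and the only untreated reference is that of 48 h. Reads on listed genes numbered 18528689 at 12 h and 18887150 and 21551210 at 24 h, within a range of 18528689 to 24148186 over all 7 libraries. Every comparison below rests on the single 12 h library, so sizes are given first, library by library. The labels do not say that replicates were separate cultures, so a p-value speaks only of the scatter among these libraries.

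ERK5, encoded by MAPK7, is a mitogen-activated protein kinase that MEK5 (MAP2K5) phosphorylates. Besides its kinase domain it carries a long C-terminal tail that can act on transcription, and the MEF2 factors are among its known substrates. Genes of the contractile and adhesive cytoskeleton, such as TAGLN, ACTA1 and TPM1, are textbook targets of serum response factor, which binds a DNA element called the CArG box, and some of them also of TEAD factors with the co-activators YAP and TAZ. Metallothioneins bind zinc and copper, and their genes answer to metal through the factor MTF1.

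Between 12 h and 24 h, 21 genes fell, and 13 of them had stood more than 1.5-fold above E8 at 12 h. ANXA1, TNC, SPP1, COL12A1, FLNC, TAGLN, TPM1 and VIM, whose products include annexins, matrix proteins and parts of the cytoskeleton, were all lower at 24 h than at 12 h, by between 1.82-fold and 12.4-fold. Genes that rose were more numerous and more mixed, and included NFE2L3, PLPPR3, GBX2 and UTF1. Over all members, limma called 64 genes (Benjamini-Hochberg adjusted p below 0.05), which is 0.394% of the 16234 genes. Of these, 43 (0.265%) were higher and 21 (0.129%) lower at 24 h. All 64 were also past 1.5-fold the same way in both 24 h libraries, a rule that 832 members met upward (5.13%) and 471 downward (2.9%). For scale, the pair of 24 h libraries differed from each other by over 1.5-fold in 1556 genes (9.585%). The E8 pair did so in 2541 genes (15.65%) and the 48 h pair in 1738 (10.71%). Taken singly, the first 24 h library was over 1.5-fold above 12 h in 1593 genes and below it in 1223. The second was above it in 1250 and below it in 989. The number called was 29 without the first 24 h library, 144 without the second, and 721 and 699 without the first or the second E8 library. Of the 64, ANXA1, ANXA3, TNC, SPP1, COL12A1, FLNC, NTS, AHNAK, TAGLN, CAV1 and MT1G downward, and RAET1E-AS1, TMEM238, WDR86, PDXP, FIGNL2, NFE2L3, PLPPR3, ANKRD9, MFSD3, MEX3D and UTF1 upward, passed whichever 1 library was left out, and the rest lost the call without at least 1 of them. Of these 11 rises, 5 (WDR86, NFE2L3, PLPPR3, ANKRD9 and MFSD3) also passed when each library's trend along GC content was removed, as described below, and the other 6 did not.

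**Figure D1:**
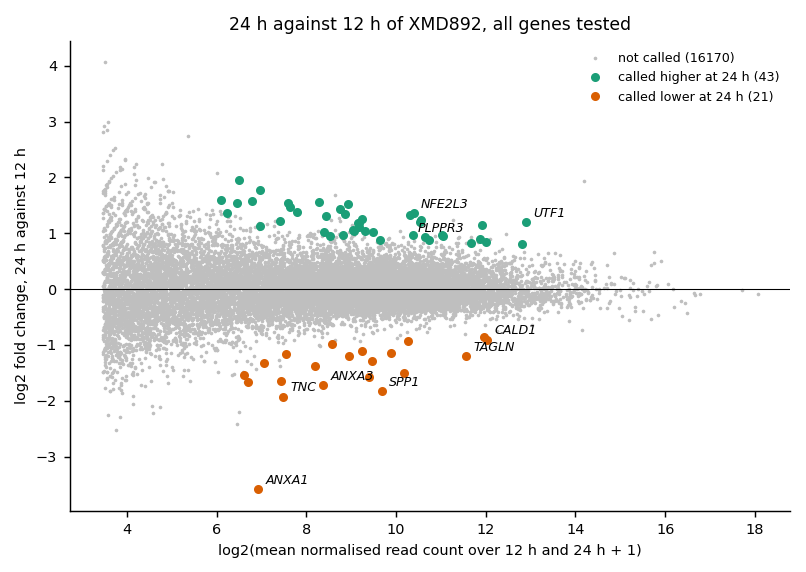
Each point is 1 gene, with the log2 of its mean normalised read count plus 1 over 12 h and 24 h on the x axis and the log2 fold change of 24 h against 12 h on the y axis. The 21 genes that passed limma downward are orange, the 43 that passed upward are green, and ANXA1 lies lowest at -3.58.

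Promoter sequences are shown for a pair of the fallen cytoskeletal genes, picked because they hold elements known from genes of this class. They do not stand for the other fallen genes, whose matches are given below. The sequences are the 250 bases before the start site, 5′ to 3′ on the strand of the gene, from RefSeq on GRCh38.p14. ACTA1 encodes skeletal muscle actin, and its window is chr1:229434095-229434344 on the minus strand. Capitals mark a CArG box beginning 97 bases before the start and the TEAD motif GGAATG, on either strand, beginning 70 and 47 bases before it. FLNC encodes filamin C, an actin cross-linker, and its window is chr7:128830156-128830405 on the plus strand, with capitals on 1 TEAD motif that begins 103 bases before the start.
ACTA1: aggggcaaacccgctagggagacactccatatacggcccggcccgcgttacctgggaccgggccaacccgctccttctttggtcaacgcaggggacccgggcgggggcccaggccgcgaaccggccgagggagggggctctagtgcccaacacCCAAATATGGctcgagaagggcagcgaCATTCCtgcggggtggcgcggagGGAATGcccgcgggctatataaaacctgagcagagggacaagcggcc
FLNC: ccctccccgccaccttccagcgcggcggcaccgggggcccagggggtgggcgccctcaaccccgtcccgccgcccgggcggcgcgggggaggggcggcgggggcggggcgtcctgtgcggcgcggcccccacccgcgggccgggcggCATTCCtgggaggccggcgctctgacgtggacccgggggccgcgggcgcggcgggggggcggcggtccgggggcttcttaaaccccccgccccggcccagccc

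Promoter windows could be matched for 16 of the 21 fallen genes, and TAGLN, COBL, ANK1, MT1E and MT1G had no entry. A CArG box was present in 1 of the 16 (ACTA1), against 0.995% of the 10954 members with a window and 1.14% of all 27305 windows. The TEAD motif GGAATG was present in 5 of the 16 (ACTA1, COL12A1, FLNC, CALD1 and NTS), against 9.24% of members and 11.9% of all windows. The AP-1 motif, TGACTCA or TGAGTCA, was in 0 of the 16 and in 2.39% of members. The metal response element, searched as TGCACNC or TGCGCNC on both strands, was in 1 of the 16 (COL12A1) and in 33.7% of members. The fallen metallothionein genes, MT1E and MT1G, had no window, so this count does not cover them. Among the other fallen cytoskeletal genes, CALD1 held 1 TEAD match, and TPM1 and VIM held 0 matches to any of the 4 motifs. TAGLN had no window, so the CArG search does not cover it. All these counts are of letter matches in 1 window a gene.

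ANXA1, which encodes a calcium-dependent membrane-binding protein, had the largest fall. Its normalised read count was 312 at 12 h, 28.1 and 22.4 at 24 h, 12.2 and 9.92 in E8, and 1.08 and 0.992 at 48 h, which is 1 read in each 48 h library. The 12 h library thus stood far above all others, and 24 h lay 12.4-fold below it but still above E8. The log2 fold change of 24 h against 12 h, on the log2(value + 1) scale used throughout, was -3.58 (SE 0.62, limma adjusted p = 0.012). The gene lies on chromosome 9 at 73151757 to 73170393 on GRCh38. ANXA3, another annexin, read 620 at 12 h, 202 and 175 at 24 h, 318 and 301 in E8 and 120 and 76.4 at 48 h. It went from above E8 to below it between these times (log2 fold change -1.72, SE 0.26, adjusted p = 0.0048).

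A set of 3 matrix genes fell in the same interval. TNC, for the matrix glycoprotein tenascin-C, had normalised read counts of 352 at 12 h, 84.4 and 100.1 at 24 h, 61.1 and 71.9 in E8 and 25.9 and 30.7 at 48 h. SPP1, for the secreted phosphoprotein osteopontin, read 1584 at 12 h, 463 and 430 at 24 h, 313 and 270 in E8 and 159 and 123 at 48 h. COL12A1, for a fibril-associated collagen, read 1201 at 12 h, 361 and 445 at 24 h, 464 and 419 in E8 and 157 and 149 at 48 h. In each of these 3 genes the 12 h value was the highest of the 7 libraries and both 48 h values were the lowest. The log2 fold changes were -1.93 for TNC (SE 0.32, adjusted p = 0.0095), -1.82 for SPP1 (SE 0.23, adjusted p = 0.001) and -1.58 for COL12A1 (SE 0.22, adjusted p = 0.0018). The broader list of extracellular matrix and integrin genes gave no call. Of 24 tested members, 0 passed limma, edgeR or DESeq2, and 1 had an unadjusted limma p under 0.05 (10.6% of all members). The median log2 fold change was -0.12 against -0.004 over all members.

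Genes of cytoskeletal proteins also fell, namely TAGLN, FLNC, ACTA1, TPM1, VIM and CALD1. TAGLN encodes the actin-binding protein transgelin. Its normalised read count was 4847 at 12 h, 2227 and 1988 at 24 h, 474 and 621 in E8 and 379 and 348 at 48 h. At 24 h it was therefore still above both E8 libraries, and by 48 h below both (log2 fold change of 24 h against 12 h -1.20, SE 0.20, adjusted p = 0.0095). TAGLN lies on chromosome 11 at 117199321 to 117204782, where its end overlaps PCSK7 on the other strand. Whether the counting used strand is not given in the sources used here, so reads of the overlap cannot be told apart.

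FLNC read 2017 at 12 h, 559 and 894 at 24 h, 375 and 519 in E8 and 295 and 221 at 48 h, a log2 fold change of -1.51 (SE 0.26, adjusted p = 0.012). ACTA1 read 190 at 12 h, 53.1 and 65.5 at 24 h, 86.4 and 98.3 in E8 and 15.1 and 24.8 at 48 h. TPM1, for a tropomyosin that lies along actin filaments, read 5701 at 12 h, 3179 and 3085 at 24 h, 2694 and 2460 in E8 and 2424 and 2278 at 48 h. VIM, for the intermediate filament protein vimentin, read 1813 at 12 h, 1026 and 882 at 24 h, 525 and 457 in E8 and 546 and 549 at 48 h. TPM1 and VIM thus came down by log2 fold changes of -0.86 and -0.93 and were still above both E8 libraries at 24 h. CALD1, for caldesmon, which also binds actin and tropomyosin, differed from these: it read 6048 at 12 h and 3314 and 3154 at 24 h, below the 5726 and 5113 of E8.

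The gene lists used here were chosen with earlier results of these data known. The list of cytoskeletal genes known as targets of serum response factor or of YAP had 20 tested members. Of these, 2 fell (TAGLN and TPM1, against 0.129% of all members), 0 rose and 18 did not pass. Both 24 h libraries were below the 12 h library in 15 of the 20, against 38.7% of all members, and above it in 3. Their median log2 fold change was -0.34. Among those that did not pass, MYL9, a myosin light chain, read 2278 at 12 h and 1431 and 1262 at 24 h (adjusted p = 0.11). CNN1, for calponin, read 404 at 12 h and 271 and 186 at 24 h (adjusted p = 0.20). The widely used YAP targets CTGF and CYR61 gave log2 fold changes of 0.07 and -0.40, with adjusted p-values of 0.95 and 0.53, and SRF itself 0.33 (adjusted p = 0.58). With the E8 libraries left out of the fit, 6 of the 20 passed downward (1.03% of all members) and 0 upward.

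**Figure D2:**
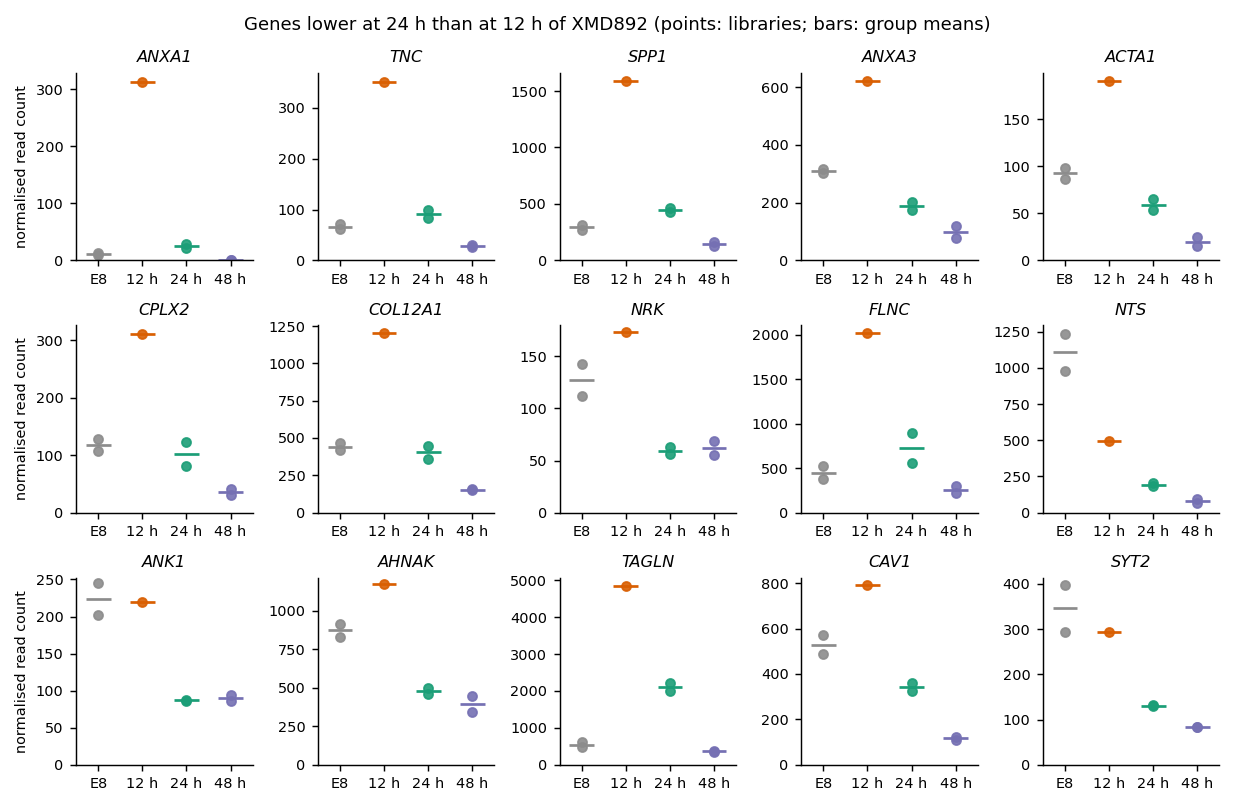
Normalised read counts (linear y axis from 0) of the 15 genes that fell most among those that passed limma, with 1 point per library, a bar at each group mean, and the groups E8, 12 h, 24 h and 48 h of XMD892 along the x axis. In ANXA1, TNC, SPP1, COL12A1, FLNC and TAGLN the single 12 h point stands above every other library, while NTS falls from E8 through 12 h and 24 h to 48 h.

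A second set of fallen genes did not stand far above E8 at 12 h. CAV1, for the membrane coat protein caveolin-1, read 790 at 12 h, 361 and 326 at 24 h, 573 and 486 in E8 and 123 and 109 at 48 h. AHNAK, for a very large scaffold protein, read 1172 at 12 h, 457 and 499 at 24 h, 915 and 830 in E8 and 445 and 342 at 48 h. ANK1, for the membrane-skeleton adaptor ankyrin-1, read 220 at 12 h, 86.4 and 87.9 at 24 h, 202 and 245 in E8 and 93.9 and 86.3 at 48 h. For all 3, both 24 h libraries lay below both E8 libraries, and for ANK1 the 12 h value was inside the E8 range. SYT2, for a synaptic vesicle calcium sensor, had the same shape, with 294 at 12 h, 132 and 129 at 24 h, 293 and 398 in E8 and 84.2 and 84.3 at 48 h.

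NTS, the gene of the peptide neurotensin, was alone among the 64 in starting below E8 and moving further away. It read 1235 and 979 in E8, 497 at 12 h, 182 and 202 at 24 h, then 67.0 and 94.2 at 48 h, with no overlap between any of the groups. The log2 fold change of 24 h against 12 h was -1.37 (SE 0.25, adjusted p = 0.016). NTS belongs to the list of secreted peptides, also chosen with earlier results of these data known. In this list 2 of 11 tested members fell (SPP1 and NTS, against 0.129% of all members), 0 rose and 9 did not pass. In 9 of the 11 both 24 h libraries were below the 12 h library (38.7% of all members), and the median log2 fold change was -0.48. VGF, a secreted neuropeptide precursor, read 4155 at 12 h, 2554 and 2240 at 24 h, 331 and 366 in E8 and 485 and 686 at 48 h. Its log2 fold change of -0.80 did not pass (adjusted p = 0.10), but it did once the trend of each library along GC was removed (adjusted p = 0.0013).

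A pair of metallothionein genes was lower at 24 h. MT1G read 1488 at 12 h, 709 and 633 at 24 h, 807 and 633 in E8 and 274 and 179 at 48 h. MT1E read 939 at 12 h, 454 and 420 at 24 h, 358 and 322 in E8 and 177 and 176 at 48 h. At 24 h MT1G was inside the E8 range and MT1E just above it, and both were below E8 at 48 h, with log2 fold changes of -1.15 (adjusted p = 0.035) and -1.10 (adjusted p = 0.025). The list of metallothioneins and zinc export had 9 tested members, of which these 2 fell (0.129% of all members fell), 0 rose and 7 did not pass; in 7 both 24 h libraries were below the 12 h library (38.7% of all members). MT2A read 1210 at 12 h and 1110 and 1082 at 24 h, and the zinc exporter SLC30A1 read 1110 at 12 h and 1169 and 1128 at 24 h. Members of the MT1 family are near-identical in sequence, so the split of reads between them is uncertain.

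Of the genes that rose, NFE2L3, for a relative of the stress-response factor NRF2, rose from the lowest level of the time course. It read 657 at 12 h, 1791 and 1589 at 24 h, 2494 and 2134 in E8 and 1658 and 1685 at 48 h. The 12 h library was the lowest of all 7, and 24 h and 48 h lay close together below E8 (log2 fold change of 24 h against 12 h 1.36, SE 0.18, adjusted p = 0.0018). PLPPR3, for a membrane protein of the phospholipid phosphatase-related family, had the same shape with 634 at 12 h, 1630 and 1547 at 24 h, 2005 and 2659 in E8 and 1788 and 2027 at 48 h. WDR86, for a protein with WD repeats, read 135 at 12 h, 399 and 401 at 24 h, 361 and 527 in E8 and 431 and 425 at 48 h. GDA, for guanine deaminase, read 208 at 12 h, 790 and 456 at 24 h, 533 and 413 in E8 and 469 and 514 at 48 h.

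A few genes were instead at the E8 level at 12 h and above it at 24 h. GBX2, a homeobox factor of the early neural plate, read 1315 at 12 h, 2646 and 2419 at 24 h, 1074 and 1225 in E8 and 1407 and 1517 at 48 h. POU3F1, a POU-domain factor of early neural tissue, read 321 at 12 h, 765 and 635 at 24 h, 252 and 336 in E8 and 325 and 459 at 48 h. ZNF837, a zinc finger gene, read 90.2 at 12 h, 271 and 232 at 24 h, 82.9 and 93.4 in E8 and 165 and 232 at 48 h. In all 3 both 24 h libraries were above every E8 library. UTF1, a chromatin-associated factor of pluripotent cells, read 4094 at 12 h, 9967 and 8809 at 24 h, 5087 and 6818 in E8 and 2695 and 4898 at 48 h, so that 24 h was the highest group. The log2 fold changes were 0.94 for GBX2 (SE 0.18, adjusted p = 0.025), 1.12 for POU3F1 (SE 0.24, adjusted p = 0.045) and 1.19 for UTF1 (SE 0.25, adjusted p = 0.035). UTF1 did not pass with DESeq2 (adjusted p = 0.37) or with limma's robust moderation (adjusted p = 0.23).

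ERVH48-1, a primate endogenous retroviral locus annotated as a long non-coding RNA, was the gene farthest below E8 among those that rose. It read 2365 and 2364 in E8, 224 at 12 h, 439 and 434 at 24 h, then 761 and 642 at 48 h. It therefore regained 1.95-fold by 24 h and was still at 0.185 of its E8 level (log2 fold change 0.96, SE 0.19, adjusted p = 0.031). IER3, an immediate early gene linked to survival, read 808 at 12 h, 1692 and 1486 at 24 h, 1722 and 1836 in E8 and 1089 and 1049 at 48 h, a log2 fold change of 0.97 (SE 0.18, adjusted p = 0.022). RAET1E-AS1 had the largest rise of the genes that passed, from 30.1 at 12 h to 115 and 123 at 24 h. Its adjusted p of 0.0498 lay just inside the threshold, and it did not pass with edgeR (0.0563), with robust moderation (0.0537) or with a pseudocount of 0.5 (0.0521). It is an antisense transcript, so its reads cannot be told apart from those of the genes it overlaps.

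**Figure D3:**
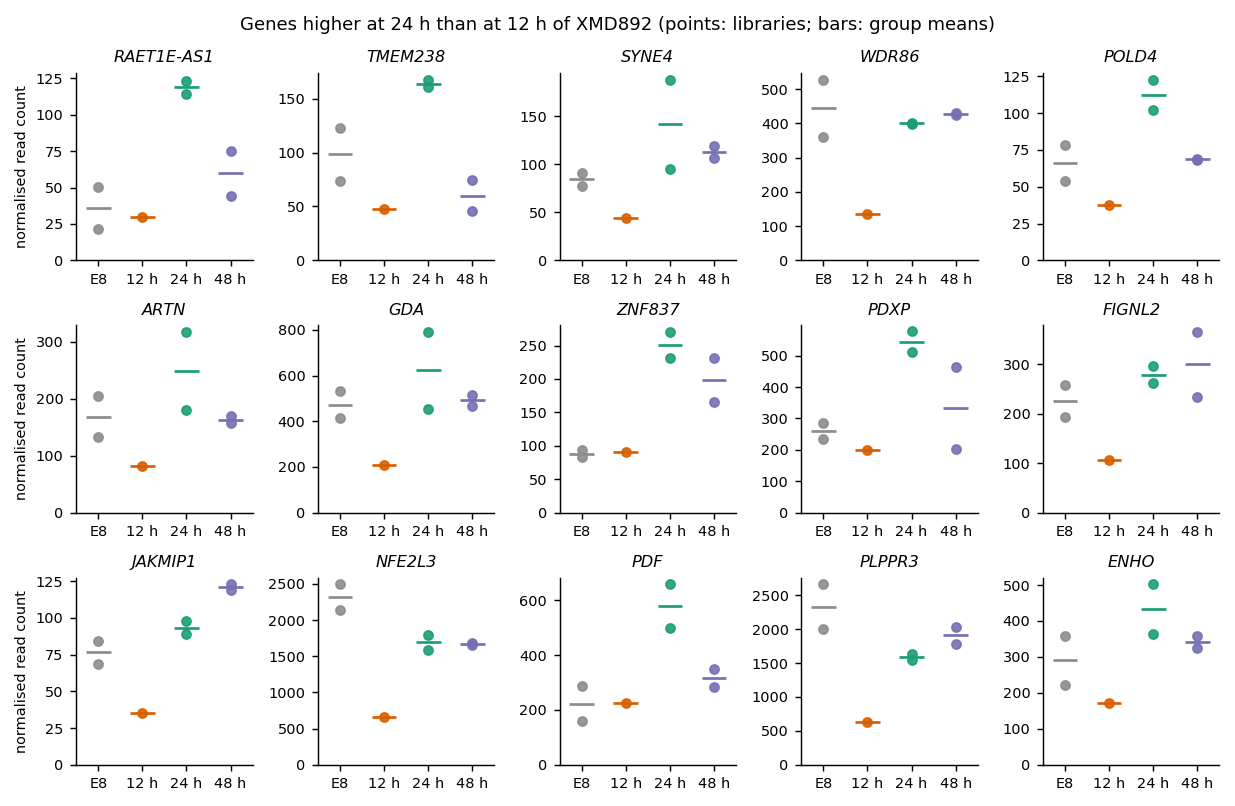
Normalised read counts (linear y axis from 0) of the 15 genes with the largest rises among those that passed limma with a group mean of 100 or more, with 1 point per library, a bar at each group mean, and the groups E8, 12 h, 24 h and 48 h along the x axis. The 12 h point is the lowest of all libraries in NFE2L3, PLPPR3, WDR86, GDA and ARTN, while ZNF837 starts at its E8 level and is above it at 24 h.

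The risen genes were GC-rich, and the fallen genes were close to the median of all members. Transcripts of the 43 risen genes had a median GC content of 62.8%, those of the 21 fallen genes 47.9%, and all members 48.6%. Over all 15907 members with a GC value, the log2 fold change had a Spearman correlation with GC of 0.33. This describes genes of the same 3 libraries, which are not independent replicates. The median log2 fold change went from -0.11 in the lowest of 10 equal GC classes to 0.34 in the highest. When the trend of each library along GC was removed, all 21 falls passed but only 20 of the 43 rises. UTF1, whose transcripts hold 76.8% GC, then had a log2 fold change of 0.34 in place of 1.19 and an adjusted p of 0.38. POU3F1 then had an adjusted p of 0.19, ZNF837 0.11 and RAET1E-AS1 (69.6% GC) 0.12. NFE2L3 (46.6% GC), GDA (37.9%), ERVH48-1 (49.2%), IER3, GBX2, PLPPR3 and WDR86 still passed. The log2 fold change of PLPPR3 went from 1.32 to 0.69 with the removal, and that of WDR86 from 1.56 to 0.99. The same trend separated the E8 libraries from each other (Spearman -0.64), was present between the 48 h libraries (0.22) and was near 0 between the 24 h libraries (-0.0018). Its part in the rises was not tested beyond this removal.

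**Figure D4:**
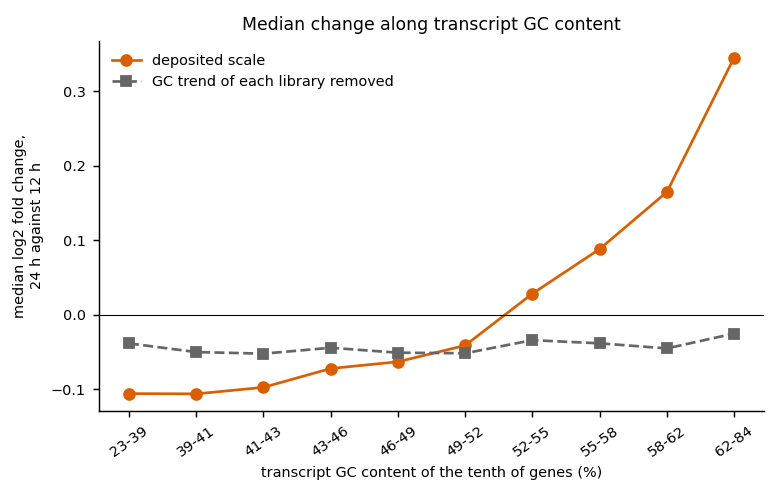
The x axis splits 15907 genes into 10 equal classes by transcript GC content in percent, and the y axis is the median log2 fold change of 24 h against 12 h in each. On the deposited scale (orange circles) the median goes from -0.11 to 0.34; after removal of each library's GC trend (grey squares) it lies between -0.052 and -0.025.

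Each gene was placed by its level in E8, to describe which changes ran back toward that level. E8 was harvested only at 48 h, so change with time in culture cannot be told apart from change with XMD892. A gene was called near E8 if its 12 h value was within 1.5-fold of the mean of E8 or inside the range of the E8 libraries. Otherwise it was placed as moving toward or away from E8 by 24 h. A gene that crossed the E8 level counted as moving toward it, however far beyond it lay at 24 h. Outside the near range, every fall from above E8 and every rise from below it therefore counted as moving toward it. For the called genes this placement restates their side of E8 at 12 h. Of the 21 fallen genes, 13 were above E8 at 12 h and moved toward it or across it. Another 7 were near it at 12 h and 1 (NTS) moved further away. By 24 h, 6 of those 13 were within 1.5-fold of E8. Of the 43 risen genes, 29 were below E8 at 12 h and moved toward it or across it, 14 were near it and 0 moved further away. By 24 h, 24 of the 29 were within 1.5-fold of E8. TMEM238, POLD4, SYNE4 and ENHO had crossed to log2 differences from E8 of 0.78, 0.77, 0.66 and 0.60, past 1.5-fold above it. ANXA3 and ACTA1, counted among the 13 falls, had crossed to -0.71 and -0.64. Over all members 17.6% moved toward E8, 77.2% were near it at 12 h and 5.19% moved further away. The 12 h library enters both differences, so an error in it alone would place genes as moving toward E8, and these counts are a description with no test. The 12 h library was above both E8 libraries in 18 of the 21 fallen genes (38.4% of all members). It was below both in 37 of the 43 risen genes (34.1%). The same library entered the choice of these genes.

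The 48 h libraries show what followed. Of the 21 fallen genes, 18 had both 48 h libraries below both 24 h libraries, against 26.1% of members, and 1 had both above. In 19 both 48 h libraries were below both E8 libraries, against 24.5% of members. Their median log2 difference of 48 h against 24 h was -1.30. So most of these genes did not settle at the E8 level but passed through it: ANXA3, ACTA1 and CAV1 were already under E8 at 24 h, and TAGLN, TNC, SPP1 and FLNC were under it at 48 h. NRK, a kinase gene, and ANK1 were about level from 24 h to 48 h, with 56.2 and 62.7 against 69.1 and 55.5 for NRK. Of the 43 risen genes, 41 had both 48 h libraries above the 12 h library (38.8% of members) and 26 had both below both 24 h libraries. The 12 h library entered the choice of these genes and is also the baseline of the 41. An error in it alone could give that count, so whether the rises were held was not tested. The 24 h values likewise enter both the comparison with 48 h and the one that chose the genes.

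Gene lists without a call still differed in direction. Of 25 tested genes of cholesterol synthesis and SREBP2 targets, 0 passed limma, edgeR or DESeq2, and 13 had an unadjusted p under 0.05 (10.6% of all members). Both 24 h libraries were above the 12 h library in 23 of the 25 (39.2% of all members) and below it in 0, with a median log2 fold change of 0.39. HMGCS1, for an early enzyme of the pathway, read 7579 at 12 h, 12738 and 9725 at 24 h, 11716 and 11088 in E8 and 10078 and 9983 at 48 h (adjusted p = 0.22). INSIG1, which retains the SREBP complex in the endoplasmic reticulum, read 1945 at 12 h and 5160 and 2647 at 24 h (adjusted p = 0.11), so the 24 h libraries differ widely. The first 24 h library was the higher of the pair in 24 of the 25 (49.9% of all members), as for MVD with 5139 and 3362. Without the E8 libraries in the fit, 9 of the 25 passed upward (3.42% of all members).

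Ribosome biogenesis genes had both 24 h libraries below the 12 h library in 21 of 25 (38.7% of members) and above it in 3, with a median log2 fold change of -0.22. None of the 25 passed limma, edgeR or DESeq2 (0 in each), and 5 had an unadjusted limma p under 0.05 (10.6% of all members). NOLC1, a nucleolar phosphoprotein, read 8442 at 12 h, 5535 and 6142 at 24 h, beside 5335 and 5290 in E8 (adjusted p = 0.20). Replication histone genes had a median of -0.53 over 17 tested members. Of these, 0 passed limma, edgeR or DESeq2 and 2 had an unadjusted limma p under 0.05 (10.6% of all members). Both 24 h libraries were below the 12 h library in 9 of the 17 (38.7% of all members) and above it in 1. The first 24 h library was the higher of the pair in only 2 (49.9% of all members). HIST1H2AC read 666 at 12 h, 369 and 579 at 24 h, beside 115 and 96.7 in E8, with a wide gap between the 24 h libraries (adjusted p = 0.48). Histone genes are near-identical copies, so reads between them are uncertain, and most of their transcripts lack a poly(A) tail. Hypoxia targets and glycolysis genes lay at medians of 0.05 and 0.01, with 0 of 25 and 0 of 21 passing limma, edgeR or DESeq2. An unadjusted limma p under 0.05 was found for 0 and 1 of them (10.6% of all members).

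**Figure D5:**
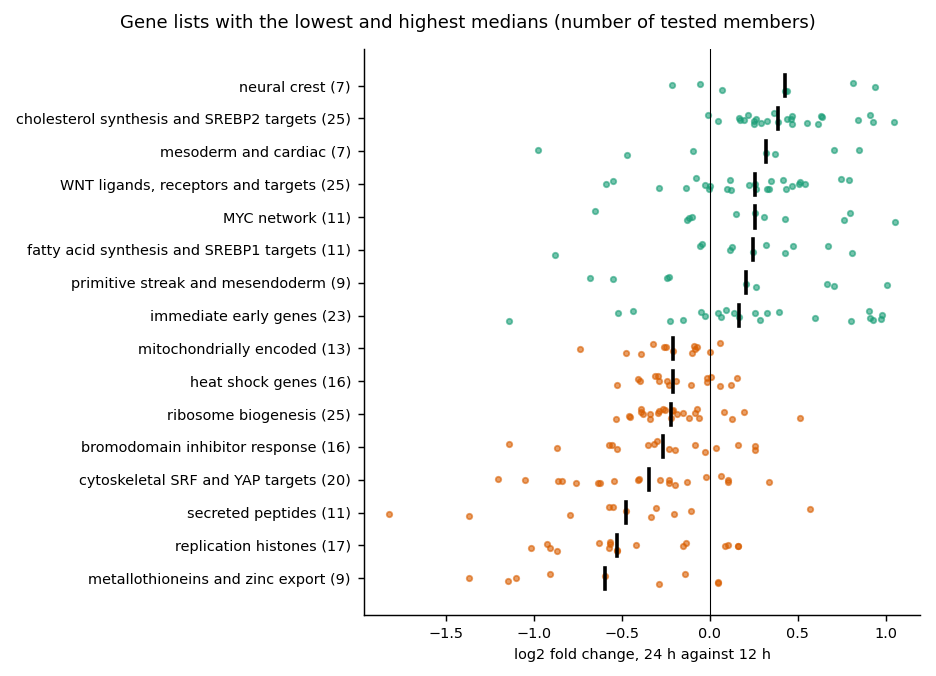
Each row is a gene list with its number of tested members, each point the log2 fold change of 1 member at 24 h against 12 h, and each black bar the list's median. The 8 highest and 8 lowest medians of 55 lists are drawn, leaving out definitive endoderm (median 0.26), which had only 4 tested members. Cholesterol synthesis lies at 0.39, cytoskeletal targets at -0.34 and metallothioneins at -0.59.

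No gene of the ERK5 cascade passed. MAPK7 read 673 at 12 h, 748 and 857 at 24 h, beside 711 and 727 in E8 (adjusted p = 0.69), and MAP2K5 265 at 12 h and 366 and 276 at 24 h (adjusted p = 0.73). Of 11 tested genes of the ERK5 cascade and MEF2, 0 passed limma, edgeR or DESeq2. An unadjusted limma p under 0.05 was found for 0 of them (10.6% of all members). Feedback genes of ERK1 and ERK2 gave 0 calls of 20 by limma and by edgeR. With DESeq2, 3 passed upward (79 of all 16234 members), and with the GC trend removed 2 did (37 of all 16234). An unadjusted limma p under 0.05 was found for 6 of the 20 (10.6% of all members). DUSP6, the phosphatase that acts on ERK1 and ERK2, read 3706 at 12 h, 6690 and 5501 at 24 h, 3477 and 3637 in E8 and 5052 and 4758 at 48 h. Its rise of 0.71 missed the threshold (adjusted p = 0.080) and passed with the GC trend removed (adjusted p = 0.029). Among immediate early genes 1 of 23 rose (IER3, against 0.265% of all members), 0 fell and 22 did not pass. FOS and EGR1 gave log2 fold changes of -0.03 and 0.09, with adjusted p-values of 0.98 and 0.94.

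The ligands NODAL, GDF3, FGF4, FGF8 and WNT3 were already below E8 at 12 h, and none of them passed between 12 h and 24 h. NODAL read 598 and 782 in E8, 137 at 12 h, 92.7 and 78.6 at 24 h, then 77.7 and 83.3 at 48 h (24 h against 12 h: log2 fold change -0.68, adjusted p = 0.33). GDF3, of the same TGFβ family, read 156 at 12 h and 132 and 200.2 at 24 h, so the 24 h pair lies on either side. FGF4 and FGF8, both fibroblast growth factors, gave log2 fold changes of 0.21 and -0.23, with adjusted p-values of 0.90 and 0.88. WNT3 read 59.0 at 12 h and 41.7 and 38.3 at 24 h (adjusted p = 0.63). LEFTY1, a NODAL antagonist and itself a NODAL target, read 95.5 at 12 h, 231 and 166 at 24 h, 671 and 788 in E8 and 147 and 118 at 48 h. Both 24 h values were above 12 h while NODAL's were below, but LEFTY1's log2 fold change of 1.03 did not pass (adjusted p = 0.080). In the list of the NODAL pathway, 0 of 23 passed limma, edgeR or DESeq2. An unadjusted limma p under 0.05 was found for 3 (10.6% of all members).

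TBX10 and NUDT8 stood far above E8 at 12 h, their highest group mean. TBX10, a T-box factor, read 36.7 and 56.2 in E8, 1656 at 12 h, 864 and 1095 at 24 h, then 569 and 454 at 48 h. NUDT8, a nudix hydrolase gene, read 74.2 and 102 in E8, 908 at 12 h, 473 and 681 at 24 h, then 293 and 283 at 48 h. Both libraries of each later group lay below those of the group before. The log2 fold changes of -0.77 and -0.68 from 12 h to 24 h did not pass (adjusted p = 0.23 and 0.31) and passed with the GC trend removed (adjusted p = 0.035 and 0.030). NUDT8 (67627938 to 67629930) lies directly beside TBX10 (67631303 to 67639560) on chromosome 11, and both are on the minus strand. TXNIP, which binds thioredoxin, was level at first, with 222 at 12 h, 260 and 219 at 24 h, beside 212 and 253 in E8, and then read 1522 and 1403 at 48 h.

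Pluripotency genes, which define the labelled cell type, were present in all 3 libraries. POU5F1 read 42265 at 12 h and 58983 and 55747 at 24 h, SOX2 read 4509 at 12 h and 4764 and 4888 at 24 h, and NANOG read 3059 at 12 h and 3904 and 4138 at 24 h. None of these 3 passed (adjusted p = 0.46, 0.89 and 0.43). Of the 25 tested genes of the list, 1 rose (UTF1, against 0.265% of all members), 0 fell and 24 did not pass. The median log2 fold change was 0.04. Marker lists of other cell types are given by their summed normalised read counts. The list of primitive streak and mesendoderm genes, 10 of 15 of which could be analysed, summed to 336 at 12 h and 314 and 316 at 24 h. Both 24 h libraries were above the 12 h library in 5 of its 9 tested members (39.2% of all members). They were below it in 3, NODAL among them. The list of definitive endoderm, 5 of 13, summed to 336, 355 and 379. That of trophoblast and amnion, 9 of 17, summed to 4082 at 12 h and 3604 and 3290 at 24 h. Its member ANXA3 went from 620 to 202 and 175. In 5 of 7 tested members both 24 h libraries were below the 12 h library (38.7% of all members), and in 1 above it (39.2%). KRT19, with the highest counts of the list, read 2435 at 12 h and 2609 and 2298 at 24 h. That of anterior neuroectoderm, 17 of 20, summed to 24826, 21541 and 20526. NES, for the intermediate filament protein nestin, made most of the last sum, with 18781 at 12 h and 13605 and 11825 at 24 h. Without NES the other 16 genes summed to 6045 at 12 h and 7935 and 8700 at 24 h, the other way. Of the fibroblast and mesenchyme list, 9 of 14 could be analysed, with sums of 27975 at 12 h and 25953 and 28496 at 24 h against 29006 and 33898 in E8; COL3A1, DCN, LUM, POSTN and FAP were not analysed here. Both 24 h libraries were above the 12 h library in 5 of those 9 (39.2% of all members) and below it in 3; THY1 read 3970 at 12 h and 5140 and 6055 at 24 h. VIM and COL1A1 of that list were higher at 12 h than in any other library, COL1A1 with 1534 at 12 h, 882 and 851 at 24 h, beside 481 and 589 in E8 (adjusted p = 0.080). The part of other cells in the falls was not tested.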

How the data were processed

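Poly(A) RNA of 7 H1 samples was read as paired ends on a NextSeq 500, per the labels' protocols. The submitters' processing notes name Trimmomatic 0.36, STAR, featureCounts 1.5.3, DESeq2 1.26.0 and hg38, without roles; annotation, strand setting and filter are not given in the sources used here. The deposited values are a normalised signal for each gene symbol: the authors divided read counts by a library factor. Whole reads were recovered from the steps of low values (100% of values within 0.1 of a whole number). A further 2 columns named for 12 h could be matched to no sample and were left out everywhere.

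On the scale log2(value + pseudocount 1), limma 3.58.1 (R 4.3.3) fitted group means over the 7 libraries with variance moderated along expression (3 residual degrees of freedom, prior 18.32). A call is a Benjamini-Hochberg adjusted p below 0.05 over 16234 members. The fit takes the lone 12 h library to have the spread of the replicated groups. Counts of genes past 1.5-fold in both 24 h libraries use no test. edgeR 4.0.16 (57 genes called) and DESeq2 1.42.0 (111) on the recovered reads were alternatives, beside other pseudocounts, filters, scalings, groups fitted and left-out libraries. Steps were tested on simulated data.

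Symbols were matched to GENCODE 29 on GRCh38 (98.0% of members) for coordinates and GC content. Motifs were searched on both strands in 250 bases before the first RefSeq start listed for a gene.

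Named genes were the 15 largest changes each way among called genes with a group mean of 100 or more, up to 4 called members of each of 55 lists (mean of 50 or more), and a set of signalling, pluripotency and early response genes. Other genes of a list, and ERVH48-1 and CALD1, were chosen after their values were seen. The members and lists were chosen with earlier results of these data known.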

Additional observations from a re-analysis of the deposited data

How the results depend on the processing

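All 64 called genes kept their direction in all 22 alternatives, but many of these could not change it. Filters, robust moderation and left-out E8 or 48 h libraries do not enter the difference between 24 h and 12 h. All 64 were also past 1.5-fold in both 24 h libraries, so leaving out either could not turn it. Of the 64, 22 (11 lower, 11 higher) passed whichever single library was left out. The number called depended on the libraries fitted. It lay between 29 and 721 when 1 library was left out, with 15 to 551 higher and 14 to 170 lower. Without E8 replicate 1 it was 721 and without E8 replicate 2 it was 699, without 24 h replicate 1 it was 29 (15 higher, 14 lower) and without 24 h replicate 2 it was 144; without 48 h replicate 1, 28 were higher. With only the XMD892 libraries 724 were called (556 higher, 168 lower), and with only 12 h and 24 h, on 1 residual degree of freedom, 1471 (989 higher, 482 lower). The log2 difference of the E8 pair had an SD of 0.473, against 0.377 for the 24 h pair. DESeq2 called 111 (79 higher, 32 lower). With the GC trend removed 91 were called and the balance turned to 37 higher and 54 lower; with only XMD892 libraries and the GC trend removed, chosen after seeing the data, 325 (170 higher, 155 lower). At 2-fold in both 24 h libraries 230 members were higher and 103 lower, and with the GC trend removed 538 were past 1.5-fold upward. Counted at 2-fold, 27 called genes moved toward or across E8 and 36 were near it at 12 h, against 42 and 21 at 1.5-fold. With E8 replicate 1 alone 2 moved further away, against 1. The causes were not tested. With the replicate number as a block, 76 genes were called (49 higher, 27 lower); correlations of replicate differences between groups, from -0.072 to -0.045, gave no pairing. RN7SL2, a structural RNA chosen after its values were seen, read 5968 at 12 h and 35432 and 14871 at 24 h, and between 1080 and 29262 in E8. Depth limits low genes: ANXA1 had 1 read in each 48 h library.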
